A study of Sus scrofa with 96 samples.

Results

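Synovium taken from Yucatan minipig knees 52 weeks after reconstruction of the anterior cruciate ligament (ACL) was compared with synovium from intact knees. The comparison used 24 of the 96 libraries of the series, 12 labelled ACL reconstruction (RECON) and 12 labelled Control (CON), chosen by their labels alone. Of 24468 transcripts tested, 2355 were higher and 2398 were lower in RECON synovium. The largest changes were falls: 14 transcripts that were at 11.4 to 722 CPM (counts scaled to a common library size) on average in CON synovium fell at least 16-fold, while the typical called transcript moved by less than 2-fold.

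Synovium is the connective tissue that lines the joint cavity. Its surface layer of fibroblasts and macrophages makes the lubricant and the hyaluronan of the joint fluid, and below it lies a looser layer with vessels, nerves and fat. After an injury or an operation on a joint this tissue is known for inflammation, thickening and fibrosis, and its products reach the cartilage through the joint fluid.

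RECON knees had their ACL cut and then replaced by a fresh-frozen bone–patellar tendon–bone allograft held with interference screws. The operation opened the joint on the medial side and removed part of the fat pad. CON knees were the contralateral, non-operated knees of pigs that had been operated on the other side, by any of the 3 procedures of the study, so they had no sham operation and belonged to animals with an operated joint. The 24 knees came from 20 animals, since 4 animals gave both a RECON and a CON knee. The pigs were adolescent females and castrated males. The tissue was the posterior part of the synovium attached to the medial meniscus, which is a mixture of cell types. In such bulk tissue fewer cells of a type and less RNA per cell cannot be told apart. The other knees of the series had the transection alone (ACLT) or a repair with a scaffold (REPAIR), and every knee also gave an articular cartilage library.

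Total counts ran from 7483043 to 17481479 in CON (median 12555764) and from 9249742 to 18680177 in RECON (median 14749385). The 3 library measures tested did not differ past the threshold. Adjusted over the 3, the permutation p was 0.1079 for total counts, for transcripts detected (28819 on average in CON, 27998 in RECON) and for the share of counts in the 10 most abundant transcripts (18.1% ± 2.93 in CON, 20.9% ± 4.26 in RECON, SD, n = 12 each). RNA integrity and the share of uniquely mapped reads were not among these measures. The paper reports that both averaged lower in operated synovium, its surgical groups pooled, than in control synovium. Transcripts restricted to cartilage, defined in ACLT and REPAIR knees, took 0.375% to 1.58% of the counts of each of the 24 synovium libraries and 22.4% to 44.1% of each cartilage library of the same knees. Synovium-restricted transcripts took 9.32% to 14.8% in synovium and 0.172% to 1.72% in cartilage. The tissue labels thus matched the counts in all 48 libraries.

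One CON library went against its labels in another respect. From the cartilage libraries, 6 transcripts were taken that were at 1 CPM or more in every castrated male and under 0.25 CPM in every female. In synovium their summed level was 0 to 0.137 CPM in 23 libraries of listed females and 60.3 to 110.6 CPM in 22 libraries of listed castrated males. The library labelled CON 11, listed as a castrated male, was at 0 CPM, whereas the cartilage library of that knee was at 82.7 CPM. The library labelled REPAIR 7 was at 100.7 CPM although listed as a female, and its cartilage library was at 0 CPM. The other 45 of 47 listed synovium libraries matched. No sample was moved to another group. In synovium, the total counts of calls and the fold changes of the named transcripts against CON are given with and without the library labelled CON 11. Other values that use CON synovium include it unless stated.

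**Figure D1:**
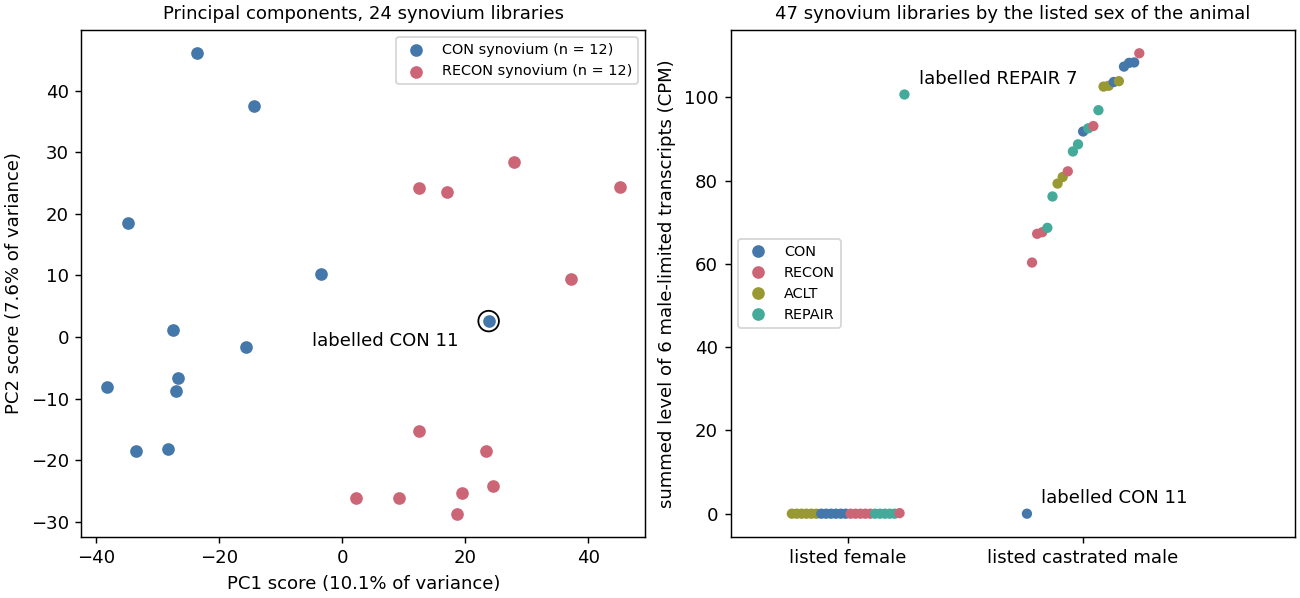
The left panel plots the scores of the 24 synovium libraries on the first and second principal components of the 500 most variable transcripts. The library labelled CON 11, circled, lies at 23.78 on PC1 among the RECON libraries (2.19 to 45.09), and the other 11 CON libraries lie from -38.28 to -3.49. The right panel plots the summed level in CPM of the 6 male-limited transcripts in 47 synovium libraries, colored by treatment, against the listed sex of the animal, with the 2 libraries that did not match labelled.

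The first principal component carried 10.1% of the variance and the second 7.62%. On the first, every RECON library had a positive score and 11 of the 12 CON libraries had a negative one. The CON library nearest to RECON among those 11 was CON 5 at -3.49, and the RECON library nearest to CON was RECON 9 at 2.19. The library labelled CON 11 lay at 23.78, beyond 8 of the 12 RECON libraries.

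The central question was which transcripts differed between operated and intact synovium 1 year after reconstruction. By edgeR's quasi-likelihood test 4753 transcripts, 19.4% of those tested, passed an adjusted p-value of 0.05, with 2355 higher in RECON (9.62%) and 2398 lower (9.8%). Without the library labelled CON 11, 5518 of 24780 passed (22.3%), 2789 higher (11.3%) and 2729 lower (11%). With TMM scaling the median change of all transcripts was -0.007 on the log2 scale. Scaled to library totals alone, that median was -0.179 and the split was 1241 higher against 4458 lower, so a direction here is relative to the bulk of transcripts. The TMM factors averaged 1.064 in CON and 0.944 in RECON, and their difference was not tested.

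Most changes were modest. The median log2 fold change was 0.59 among transcripts that rose (quartiles 0.41 and 0.92) and -0.61 among those that fell (quartiles -0.91 and -0.45). A change of at least 2-fold was found in 518 of the risers (22%) and 506 of the fallers (21.1%), and one of at least 4-fold in 108 and 100. The tails were unequal: 4 transcripts rose and 14 fell by at least 16-fold, and the extremes were 4.76 and -9.23 on the log2 scale. In 1 riser and 2 fallers the highest library held more than all the others together. How many calls depended on a single knee is not shown by this count.

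**Figure D2:**
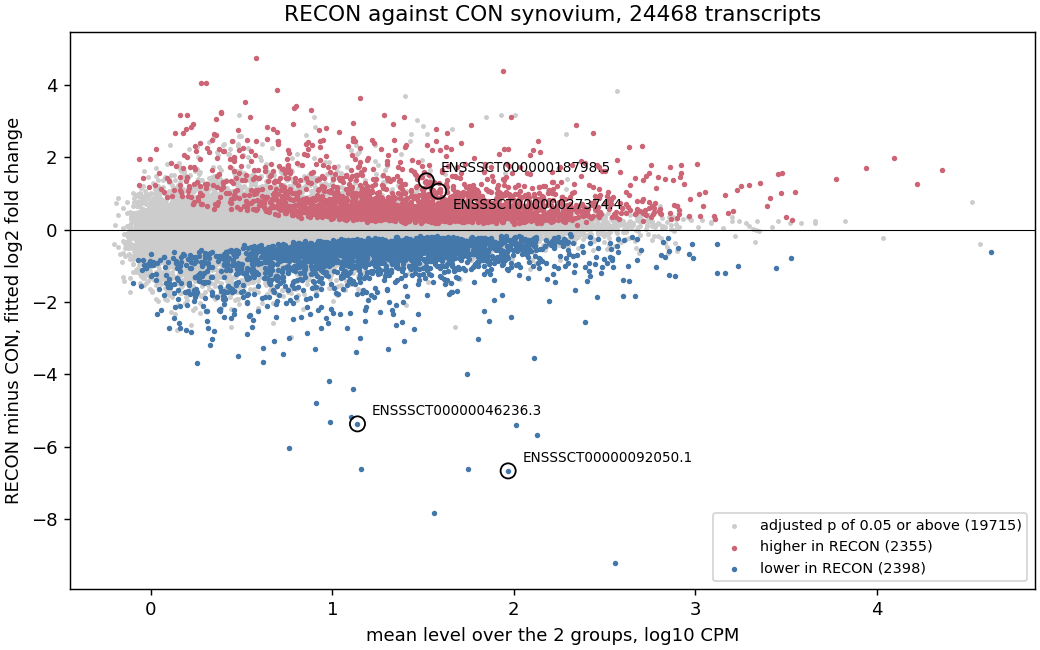
Each point is 1 of the 24468 transcripts, with the mean level of both groups on the x axis (log10 CPM) and the fitted log2 fold change of RECON minus CON on the y axis. Transcripts past the threshold are red where higher (2355) and blue where lower (2398), and the 4 named transcripts are circled. The points below -4 have few counterparts above 4.

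The groups did not overlap at all for 29 transcripts higher in RECON and 19 lower, 0.119% and 0.0777% of those tested. Leaving out the library labelled CON 11 raised these to 184 (0.752%) and 96 (0.392%). Each library was also scored by its median deviation from the CON mean over the called transcripts, which describes the lists and tests nothing. Over the risers RECON libraries lay from 0.335 (RECON 9) to 0.784 (RECON 12) log2 units, and over the fallers from -0.864 (RECON 12) to -0.299 (RECON 9). The library labelled CON 11 lay at 0.426 and -0.447, inside the RECON range on both, and the other CON libraries reached at most 0.095 and at lowest -0.194.

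The transcripts are given by their Ensembl identifiers, since the tables used here do not pair them with genes, and 2 are named in each direction. ENSSSCT00000092050.1, a transcript of 1812 bases, showed the deepest loss of the 4. Its lowest CON synovium was the library labelled CON 11 at 4.78 CPM, the median was 195 CPM and the highest was CON 3 at 342 CPM. RECON synovium ran from 0 CPM (RECON 3 and RECON 6) through a median of 0.853 to 8.69 CPM (RECON 8). A count of 0 allows up to 0.185 CPM in RECON 3 and 0.384 CPM in RECON 6, which covers counting error only. The groups overlapped only through the library labelled CON 11, since the other 11 CON libraries started at 42.7 CPM (CON 5) and RECON 8 ended at 8.69 CPM. The log2 fold change was -6.67 (standard error 0.72, edgeR adjusted p = 8.26e-06), and -6.79 (0.64, 3.17e-07) without that library. Per length, it went from 242 TPM (a level scaled by transcript length as well as library size) on average in CON to 2.01 TPM in RECON synovium.

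ENSSSCT00000046236.3, of 8022 bases, had the smallest adjusted p of all fallers that averaged 5 CPM or more. In CON synovium it ran from 1.91 CPM in the library labelled CON 11 through a median of 29 to 59.5 CPM in CON 8. RECON synovium ran from 0.129 CPM (RECON 6) through a median of 0.527 to 1.88 CPM (RECON 4). No RECON library reached the lowest CON library, and without the library labelled CON 11 the gap widened, since the next lowest was CON 7 at 10.1 CPM. The log2 fold change was -5.37 (standard error 0.46, edgeR adjusted p = 4.91e-07), and -5.49 (0.38, 5.54e-09) without it.

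ENSSSCT00000018798.5, of 2932 bases, rose. Its CON levels ran from 10.5 CPM (CON 10) through a median of 15.5 to 36.7 CPM in the library labelled CON 11, and its RECON levels from 31.3 CPM (RECON 10) through a median of 46.6 to 67.1 CPM (RECON 5). The overlap was between that CON library and the 2 lowest RECON libraries, RECON 10 and RECON 8, and the next CON library, CON 4, was at 28.8 CPM. The log2 fold change was 1.35 (standard error 0.18, edgeR adjusted p = 3.86e-05), and 1.48 (0.16, 1.32e-06) without the library labelled CON 11.

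ENSSSCT00000027374.4, of 2780 bases, had the smallest adjusted p of all risers that averaged 5 CPM or more. It ran from 19 CPM (CON 9) through a median of 24.3 to 34.6 CPM (the library labelled CON 11) in CON, and from 37.4 CPM (RECON 10) through a median of 54 to 70.5 CPM (RECON 3) in RECON. The groups did not overlap, and CON 4 stood beside the highest CON library at 34.3 CPM. The log2 fold change was 1.06 (standard error 0.11, edgeR adjusted p = 6.15e-06), and 1.11 (0.1, 3.17e-07) without the library labelled CON 11.

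**Figure D3:**
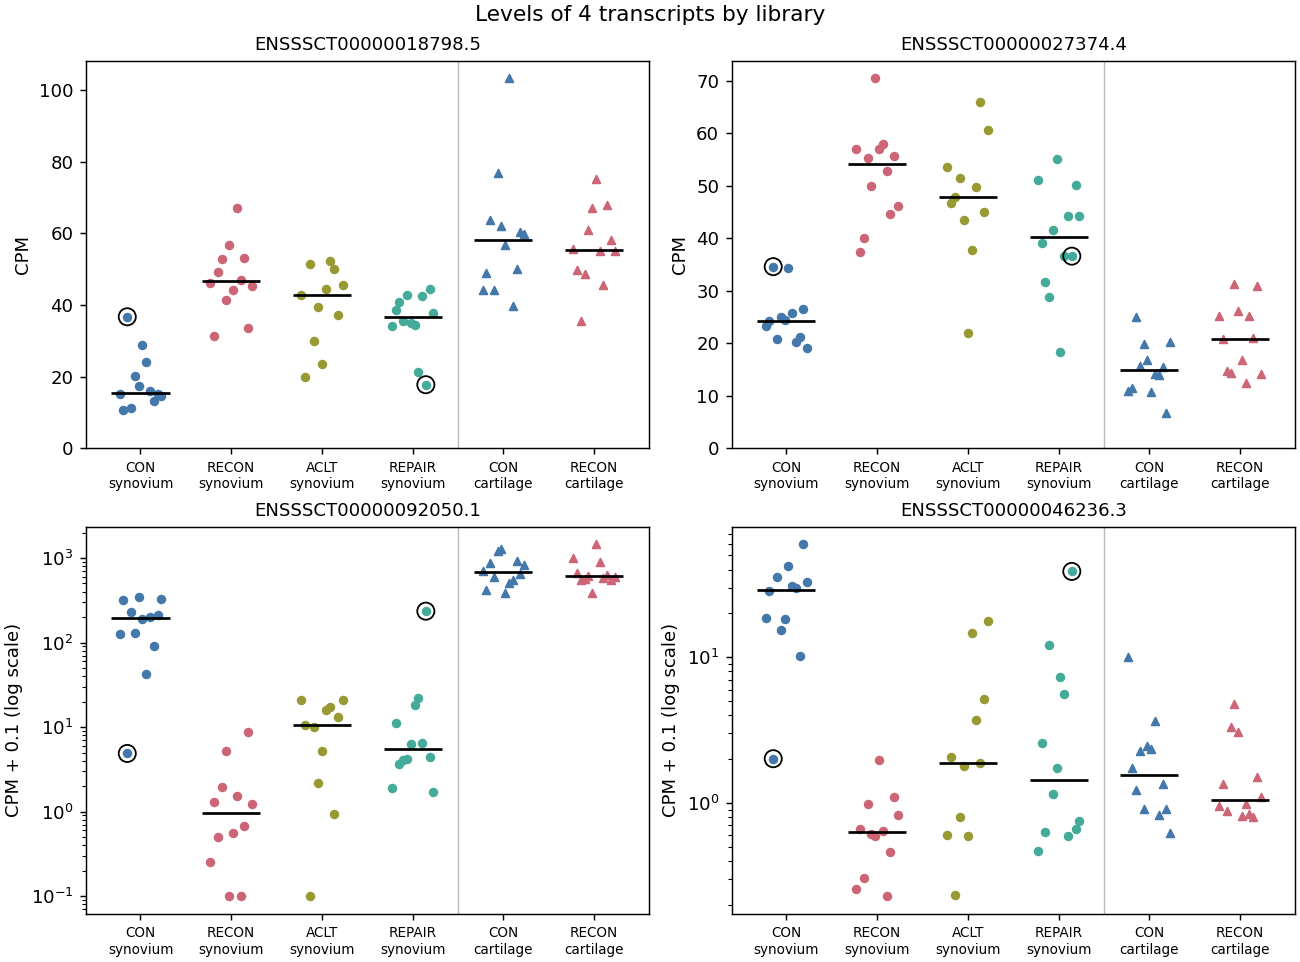
Levels in CPM of the 4 named transcripts in each library, with the risers above on a linear axis and the fallers below on a log axis (CPM + 0.1). Circles are synovium, triangles are cartilage, bars are medians, and rings mark the synovium libraries labelled CON 11 and REPAIR 7. For ENSSSCT00000092050.1 the ringed CON library (4.78 CPM) lies within the RECON range and the ringed REPAIR library (235 CPM) within the CON range.

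The strong losses were also described by their correlation with each other across intact knees. The 14 transcripts that fell at least 16-fold had RECON means of 0.159 to 5.18 CPM and lengths of 879 to 8022 bases. The library labelled CON 11 lay below every other CON library in all 14, a count not made for the other fallers. Among the other 11 CON libraries the median Spearman correlation between pairs of these transcripts was 0.609. It is a description over libraries that share depth and tissue sampling. No value for other fallers or for all transcripts stands beside it, so it is not shown to be particular to these 14. In 1 of the 14 the level in the top library exceeded that of the rest combined. CON 6 was the highest library for 11 of the 14. CON 6 also had the largest share of cartilage-restricted transcripts among the 24 synovium libraries, 1.58% against at most 0.998% in the others. Of the 14 transcripts, 2 belonged to the cartilage-restricted set and 4 to the synovium-restricted set, and 4 reached 1 CPM on average in CON cartilage. The part of that share in these losses was not tested.

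In the other direction, 19 transcripts rose at least 8-fold, from CON means of 0.204 to 19.9 CPM to RECON means of 2.63 to 173 CPM. The median Spearman correlation between pairs of them was 0.14 over the 12 RECON libraries. The highest library was most often RECON 6, for 5 of the 19, followed by RECON 12 for 3. In 1 of the 19 the level in the top library exceeded that of the rest combined. The library labelled CON 11 lay above every other CON library in 12 of them. No test compared the correlations of the gains with those of the losses, and no value for all transcripts stands beside either.

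Spread within the groups was wider after reconstruction. The median SD of log2 CPM over the tested transcripts was 0.492 in RECON and 0.424 in CON, or 0.4 without the library labelled CON 11, and the SD was larger in RECON for 64.9% of transcripts (68.9% without it). The common dispersion was 0.366 in RECON and 0.283 in CON (0.269 without it). These values are descriptions over transcripts, which are not independent, and the difference in spread was not tested.

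With TMM scaling, rises were more frequent than falls among abundant transcripts, a direction that turned with scaling to library totals alone. Of the decile with the highest mean level, 63.8 CPM and above, 633 of 2447 were higher in RECON (25.9%) and 289 were lower (11.8%), against 55 and 97 in the lowest decile. Deciles of mean TPM, a measure per length, gave 579 higher and 280 lower at the top and 62 and 119 at the bottom. Scaled to library totals, the top decile held 359 higher and 536 lower, and without the library labelled CON 11, with TMM, 704 and 310. Relative to the median of all transcripts, the median log2 fold change of the top decile was 0.12 with TMM scaling and 0.122 with library totals. More counts per transcript also give the test more power, in either direction.

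The share of counts in the abundant called transcripts is given as a description, since they were picked for their direction and their sum had to follow it. The 27 risers that averaged 1000 CPM or more together held 4.35% to 8.11% of the counts in CON libraries other than the library labelled CON 11, which was at 13.6%, with a CON median of 5.94%. In RECON they held from 7.77% (RECON 10) through a median of 12.7% to 24.7% (RECON 1). Only RECON 10 fell below the highest of those 11 CON libraries, CON 2. The 4 most abundant of them, all 4701 to 5754 bases long, held 1.65% to 4.11% in these CON libraries, 8.50% in the library labelled CON 11 and 3.74% to 16.3% in RECON. The 7 fallers above 1000 CPM moved the other way, from a median of 6.71% in CON to 3.63% in RECON. Of the 50 transcripts with the highest mean CPM 21 rose and 7 fell, and of the 50 with the highest mean TPM 10 rose and 3 fell.

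Long transcripts were more often lower than higher, and with TMM scaling short ones more often higher than lower, which turned to 52 higher and 118 lower with library totals. Of the 3338 transcripts over 6000 bases 9.02% were higher and 13.9% lower, while of the 1317 with over 300 and up to 1000 bases 8.88% were higher (117) and 4.63% lower (61). The shares that were lower in the intermediate classes lay between these, while the shares that were higher (10.3% and 9.29%) lay above both, with 1020 higher and 755 lower of 9918 over 1000 and up to 3000 bases, and 912 higher and 1115 lower of 9821 over 3000 and up to 6000 bases. Without the library labelled CON 11, 331 were higher and 522 lower over 6000 bases, and 181 and 71 over 300 and up to 1000 bases. Among the 74 transcripts of at most 300 bases 5 were higher and 2 lower. Relative to all transcripts, the median of the class over 300 and up to 1000 bases was 0.112 with TMM scaling and 0.117 with library totals. With the study's listed RIN, a score of RNA integrity, as a covariate, the median log2 fold change relative to all transcripts went from -0.06 to -0.096 over 6000 bases and to 0.2 over 300 and up to 1000 bases.

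**Figure D4:**
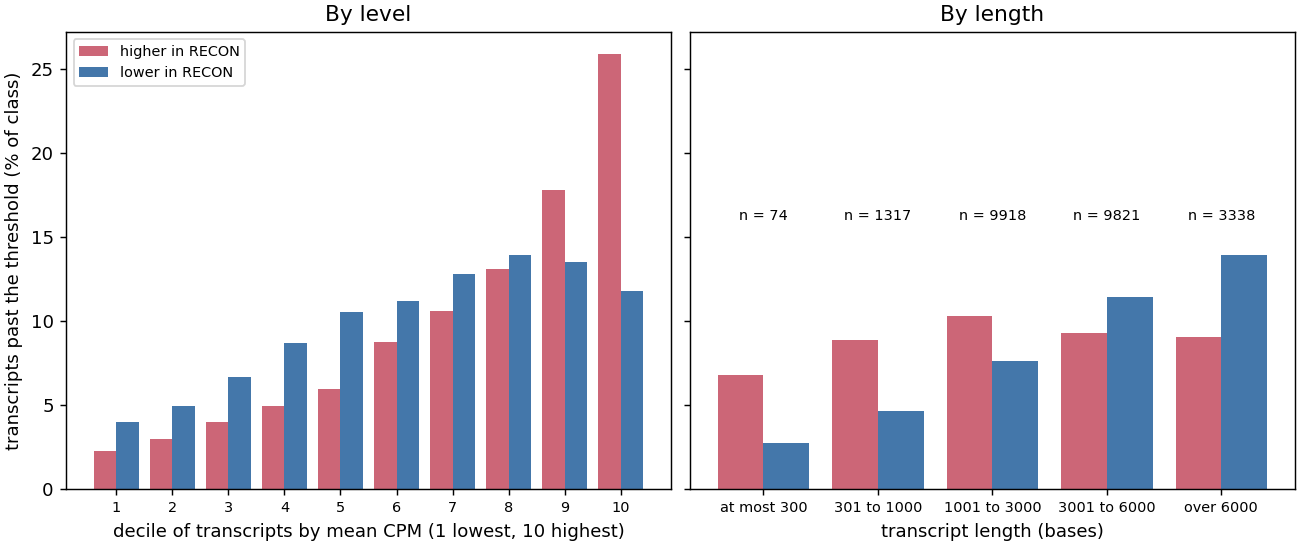
Bars give the percent of each class past the threshold with TMM scaling, red where higher and blue where lower in RECON. On the left the transcripts are in deciles by mean CPM and on the right in 5 classes of length with their numbers. The share that was higher climbs from 2.25% in the lowest decile to 25.9% in the highest, and on the right the share that was lower climbs from 2.7% to 13.9% with length.

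Transcripts typical of synovium were more often lower than higher in the fit of the 24 libraries. Sets restricted to 1 tissue were defined in ACLT and REPAIR knees, which this comparison does not use, by an 8-fold difference and at least 5 CPM. Of the 1027 synovium-restricted transcripts 1011 were tested, and 308 fell (30.5%, against 9.8% of all transcripts) while 125 rose (12.4%, against 9.62%), with a median log2 fold change of -0.34. With RIN as a covariate 199 fell and 99 rose, and in a fit of both tissues and all 4 treatments 69 fell and 63 rose, while the median relative to all transcripts went from -0.333 to -0.265 and -0.318. Without the library labelled CON 11 the counts were 313 and 140. Of the 541 cartilage-restricted transcripts 278 were tested, and 64 rose (23%) and 37 fell (13.3%), with a median of 0.09, but 51 rose and 57 fell with scaling to library totals, 36 rose and 36 fell with RIN as a covariate, and 103 rose and 79 fell in the fit of both tissues. Without the library labelled CON 11, 68 rose and 44 fell. Defined without knee REPAIR 7, the synovium set held 306 fallers and 132 risers and the cartilage set 38 and 64. The sets come from operated knees, so a transcript lost from every operated synovium could enter the cartilage set and not the synovium set. In the same way, one gained in operated synovium could enter the synovium set. CON knees include contralateral knees of ACLT and REPAIR pigs, so the sets share animals with the CON group.

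In spite of these falls, the synovium-restricted transcripts did not take a smaller share of the counts. Their sum was 9.32% to 10.8% in CON libraries other than the library labelled CON 11, which was at 11.5%, and 9.55% (RECON 11) to 14.8% (RECON 1) in RECON, with medians of 9.82% and 10.9%. The groups overlapped widely. Among the 20 most abundant members 7 rose and 4 fell, with a median of 0.11, and 6 of these 20 were among the 27 abundant risers. Summed over the 278 tested members, and not over all 541 as above, cartilage-restricted transcripts were at a median of 0.476% in CON and 0.646% in RECON, and CON 6 was highest at 1.53%.

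**Figure D5:**
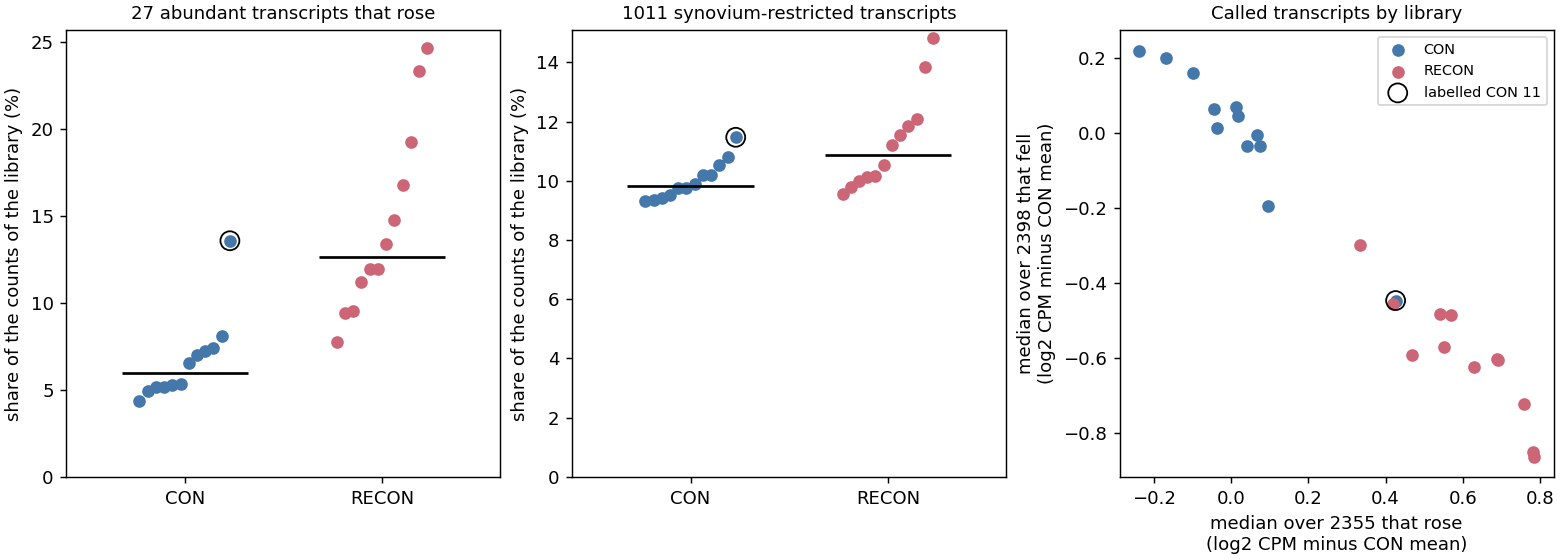
The left and middle panels plot, for each CON and RECON synovium library, the percent of its counts in the 27 abundant risers and in the 1011 synovium-restricted transcripts, with bars at the medians. The right panel plots each library's median over the 2355 risers against that over the 2398 fallers, in log2 CPM minus the CON mean. The ringed library labelled CON 11, at 13.6% on the left, lies among the RECON libraries in all panels.

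Pairs of knees from the same animal were also compared. In the 4 animals with both knees, 1557 of the 2355 risers (66.1%, against 11.8% of all tested) were higher in the RECON knee of each animal, and 1635 of the 2398 fallers (68.2%, against 14.5%) were lower. These knees are part of the comparison that chose the lists. ENSSSCT00000092050.1 went from 202 to 0.406 CPM between CON 6 and RECON 11, from 212 to 1.43 between CON 8 and RECON 5, from 91.4 to 0.156 between CON 7 and RECON 1, and from 42.7 to 0.571 between CON 5 and RECON 7. ENSSSCT00000018798.5 went from 16 to 49.2, from 15 to 67.1, from 13.1 to 46.1 and from 24.1 to 52.9 CPM in the same order. The direction was the same in all 4 animals for the 4 named transcripts. Fitted on these 8 knees alone with the animal as a block, 1 transcript passed the threshold (3246 at an unadjusted p under 0.05), and without the block 308 passed.

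Few transcripts passed the same comparison in the cartilage of these 24 knees. In cartilage 7 of 22955 transcripts (0.0305%) passed for RECON against CON, 6 higher (0.0261%) and 1 lower (0.00436%), and 2573 had an unadjusted p under 0.05. DESeq2 called 191. Without knee CON 11, whose cartilage library matched its listed sex, edgeR called 1. Of the synovial risers 2234 were tested in cartilage, where edgeR called 2 higher and none lower (265 and 122 at an unadjusted p under 0.05) and DESeq2 38 and 9, with a median log2 fold change of 0.045. Of the synovial fallers 1974 were tested in cartilage, where none passed by edgeR (88 higher and 121 lower at an unadjusted p under 0.05) and 3 higher and 14 lower by DESeq2, with a median of -0.043. Over all 22955 transcripts tested in cartilage, edgeR put 1294 higher and 1279 lower at an unadjusted p under 0.05. DESeq2 called 97 and 94 of them, and their median was 0.001.

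The difference between the tissues was tested directly as an interaction. For 2065 of 27662 transcripts (7.47%) the change after reconstruction differed between cartilage and synovium, being higher in cartilage for 922 (3.33%) and lower for 1143 (4.13%). Of these, 1557 were called in synovium and 5 in cartilage. Of all transcripts tested in each tissue, 19.4% were called in synovium and 0.0305% in cartilage. The interaction uses the same libraries as these calls, so the overlap is not independent of them. Without knee CON 11 the interaction count was 2891, and 1560 passed (598 higher and 962 lower) when the knee was a replicate block. That block included knee CON 11, whose synovium and cartilage libraries did not match in their male-limited transcripts. With the RIN within each tissue as a covariate the majority turned, with 819 higher and 736 lower.

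The named transcripts show what the interaction measures. They were chosen on their change in synovium or on earlier results of these data. The interaction contains that synovium change, so their p-values here are not independent of the choice. ENSSSCT00000092050.1 was at 384 to 1280 CPM in CON cartilage (median 676) and at 382 to 1450 CPM in RECON cartilage (median 606), with wide overlap and a log2 fold change of -0.08 (standard error 0.21). Its interaction was 6.59 (standard error 0.69, edgeR adjusted p = 4.55e-08). ENSSSCT00000018798.5 was at 39.8 to 103 CPM in CON cartilage and 35.5 to 75 CPM in RECON cartilage, and its interaction was -1.43 (0.23, 8.47e-05). ENSSSCT00000046236.3 was low in cartilage, at medians of 1.44 and 0.942 CPM, and its interaction was 4.85 (0.65, 9.23e-06). For ENSSSCT00000027374.4 the interaction of -0.59 (0.22) did not pass, at an adjusted p of 0.095.

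Whether reconstructed knees differed from the other operated knees was asked within synovium. By edgeR no transcript of 27861 (0%) passed for RECON against ACLT or against REPAIR, with 981 (3.52%) and 1405 (5.04%) at an unadjusted p under 0.05. DESeq2 called 13 for each, or 15 and 11 without the libraries labelled CON 11 and REPAIR 7. Without those libraries edgeR called 0 for each, with 1010 and 1186 at an unadjusted p under 0.05. A p-value that misses the threshold does not show that the operations act alike.

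Levels after the other operations are given side by side, and the comparisons with CON share the 12 CON libraries. In a fit of all 47 listed synovium libraries, the 2355 risers had median log2 fold changes against CON of 0.59 for RECON, 0.44 for ACLT and 0.4 for REPAIR, and the 2398 fallers of -0.61, -0.45 and -0.42. Without the libraries labelled CON 11 and REPAIR 7 these medians were 0.63, 0.48 and 0.47, and -0.64, -0.48 and -0.48. The lists were chosen on RECON. ENSSSCT00000092050.1 was at 0 to 21.1 CPM in 11 ACLT libraries and at 1.6 to 22.2 CPM in 11 REPAIR libraries, with 235 CPM in the library labelled REPAIR 7. ENSSSCT00000046236.3 was at 0.134 to 17.7 CPM in ACLT and 0.365 to 12 CPM in REPAIR, with 38.7 CPM in the library labelled REPAIR 7. Both were lowest in RECON by their medians. RECON minus REPAIR was -3.92 (standard error 0.81, adjusted p = 0.4) and -3.24 (0.72, 0.4), and RECON minus ACLT was -2.59 (0.79, adjusted p = 1) and -2.79 (0.72, 0.691), so neither order passed the edgeR test. Without the libraries labelled CON 11 and REPAIR 7, RECON minus REPAIR shrank to -2.12 and -2.23 (edgeR adjusted p = 0.635 for each). DESeq2 put both below REPAIR with all libraries (adjusted p = 0.000199 and 0.00124) but not without these 2 (0.254 and 0.163). Against ACLT, DESeq2 put ENSSSCT00000046236.3 lower with all libraries (adjusted p = 0.0367) and without them (0.00404), and ENSSSCT00000092050.1 lower only without them (0.0258). ENSSSCT00000018798.5 was at 19.8 to 52.2 CPM in ACLT and 21.3 to 44.5 CPM in REPAIR, with 17.7 CPM in the library labelled REPAIR 7, and RECON minus REPAIR was 0.38 (0.17, adjusted p = 0.929).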

How the data were processed

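RNA of synovium and cartilage was sequenced with 100-bp paired ends after ribosomal depletion. Per the labels, the authors used FastQC 0.11.9, MultiQC 1.12, Salmon 1.8.0, R 4.2.1 and DESeq2 with Sscrofa11.1. The authors deposited estimated counts of 46295 Ensembl transcripts, not normalized between libraries, and TPM values, which are scaled by effective length. Salmon divides reads among similar transcripts, so transcripts of a gene or of paralogs share that uncertainty.

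Counts were rounded and tested in R 4.3.3 with edgeR 4.0.16 (filterByExpr with a minimum count of 10, TMM scaling, glmQLFit and glmQLFTest, Benjamini-Hochberg adjusted p under 0.05). The fit held the 24 libraries and no covariates. The cartilage comparison used 24 cartilage libraries, the interaction 48, and RECON against ACLT or REPAIR 47 synovium libraries, without ACLT 12, which the study's sample list does not hold. Library measures were compared with two-sided permutation tests of 100000 resamples. Reported CPM are scaled by TMM, and shares are of unscaled counts. Principal components used log2 CPM with a prior count of 1. DESeq2 1.42.0 and limma 3.58.1 served as alternatives. The procedure was tested on simulated data.

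No table used here pairs transcripts with genes, so planned gene lists, markers and sequences are not analysed here. The named transcripts were, in each direction, 1 followed in the series by itself and the one with the smallest adjusted p among those with a mean of at least 5 CPM. Members, sets and lists were chosen with earlier results of these data known.

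Sex, RIN and animal came from the study's sample list. Libraries of a knee share a number there, and the tissues were paired by it. Deviations from group means correlated by 0.0277 on average over 24 knees (-0.0146 to 0.0737) and by -0.00117 between other knees. For knee CON 11 the correlation was 0.000631, and its libraries did not match in their male-limited transcripts. No library pair of a group agreed within sampling noise (lowest chi-square per degree of freedom 21.7). Replicates are separate knees.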

Additional observations from a re-analysis of the deposited data

Results flagged for a closer look

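The effect of reconstruction differed between cartilage and synovium, by the test of the interaction, for 2065 transcripts (edgeR, adjusted p under 0.05). Of the named transcripts, 3 passed that test, with a change in cartilage minus that in synovium of -1.43 for ENSSSCT00000018798.5, 6.59 for ENSSSCT00000092050.1 and 4.85 for ENSSSCT00000046236.3 on the log2 scale. All named transcripts had passed in synovium before they were named, and that change is part of the interaction. Their passing adds no independent support. In the 4 animals with both knees, no difference of a named transcript stood apart from the other 3. Groups of 12 libraries were not screened in this way.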

How the results depend on the processing

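With 1 library left out at a time, 4005 (without CON 10) to 5518 (without the library labelled CON 11) transcripts passed for RECON against CON in synovium. Knees of different animals share a number across these groups, and their deviations correlated by -0.00564 on average, from -0.0753 to 0.106 over 12 pairs. The replicate block by number gave 3839. Of the other fits, DESeq2 gave 5626, 2 RUVr factors 6290, RIN 4178 and the animal as a random effect in limma 5352. Counts moved by over 1.5 times with fewer knees, to 1811 without the 4 animals with both knees and 308 in the 8 knees of those animals, and on the same 8 knees to 1 once the animal was a replicate block. The 4 named transcripts kept their direction in every fit that tested them, and 3 missed the threshold with that animal block (adjusted p from 0.0709 to 0.116). Without a filter on counts 1 transcript passed in cartilage, with the replicate block by number 0 (1992 at an unadjusted p under 0.05), without knee CON 11 1, and with DESeq2 191. DESeq2 called 13 for RECON against ACLT and 13 against REPAIR, or 15 and 11 without the libraries labelled CON 11 and REPAIR 7. The interaction count was 2763 with DESeq2. The causes of these differences between fits were not tested. Among transcripts of over 300 and up to 1000 bases, 181 were higher without the library labelled CON 11, against 117. Depth limits a transcript counted 0 times in a library to 0.155 to 0.384 CPM. Scaling to library totals, the fit of 8 knees without a block and the fits without knee CON 11 or the library labelled REPAIR 7 were chosen after the data were seen.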
